A study of Arabidopsis thaliana with 14 samples.

Results

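AKINBETA1 (AT5G21170) encodes a beta subunit of SnRK1, the energy-sensing protein kinase of plants. It was followed through its probe set 246028_at, the only 1 of 22810 on the ATH1 array that the annotation gives to this gene alone. The gene was chosen by its measured levels over the 5 groups of the series, so these levels and every difference made from them are a description and carry no test. Leaves of 1-month-old Arabidopsis thaliana were measured on 14 arrays, 1 array per RNA sample, and all plants had the Col-0 background. The groups were wild-type Col-0 with water (3 arrays), Col-0 after 14 days of drought (3 arrays), the mutant line camta5-a with water (3 arrays), camta5-a after the same drought (3 arrays), and OX-5, which overexpresses CAMTA5, also after drought (2 arrays). These lines are written camta5 and OX5 below, and a watered OX5 group was not analysed here. CAMTA5 is a calmodulin-binding transcription activator, and the series title ties its overexpression to drought tolerance. The promoter used for overexpression and the number of independent lines are not given in the sources used here. The titles call the replicates biological, without saying whether they were separate plants, pots or pools, and the spread behind each p-value is that between these samples. In whole leaves, fewer cells of a type and less RNA per cell cannot be told apart.

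SnRK1 is related to the animal kinase AMPK and the yeast kinase SNF1, which act when cells run short of energy. The complex joins a catalytic alpha subunit, a beta subunit and a gamma-type subunit. The beta subunit holds the others together and affects where in the cell the kinase acts and which proteins it reaches. An active SnRK1 complex slows costly synthesis, such as that of sucrose and sterols, and turns on genes that break down stored carbon and amino acids, as in leaves kept in the dark. Arabidopsis has several beta subunits, of which AKINBETA1 and AKINBETA2 have the full beta layout and AKINBETA3 is a shorter form found in plants.

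Both OX5 arrays differed broadly from the rest. Their Spearman coefficients with those 12 arrays across probe sets were 0.805 to 0.865, against 0.896 to 0.960 among the 12. Between both OX5 arrays the coefficient was 0.903, below the 0.942 to 0.956 between replicates within the groups of 3. The ratio of the 3′ to the 5′ probe set of the GAPDH control, which rises as RNA breaks down, was 2.27 and 2.48 on the OX5 arrays and 2.11 to 3.77 on the others. For the ubiquitin control it was 3.46 and 3.12 on the OX5 arrays and 1.97 to 3.48 on the others. The 40th percentile of the array was 104 and 88.8 on the OX5 arrays and 63.9 to 74.5 on the others. The median was 167 and 149 on the OX5 arrays and 134 to 148 on the others. The leaf markers RCA, PSAN and PSBY were at 5597 or above on every array, while the root markers PYK10 and EXPA7 were at 116 or below. These leaf markers were high on every array, but 2 of the 3 moved with the groups. PSBY fell with drought in Col-0 (log2 difference -1.36, limma, adjusted p = 0.00103) and in camta5 (-0.98, adjusted p = 0.0130), and it was higher in OX5 than in droughted Col-0 (1.14, adjusted p = 0.00252) and droughted camta5 (0.76, adjusted p = 0.0293). PSAN fell with drought in Col-0 (-0.83, adjusted p = 0.00488) and in camta5 (-0.79, adjusted p = 0.0119), and RCA was not called in any comparison. In the annotation used, no flower, seed or guard cell marker of the fixed lists had a probe set of its own, so none was followed. PYK10 rose with drought in Col-0, from 15.2 to 77.1, and in camta5, from 14.3 to 89.2 (limma, adjusted p = 0.0475 and 0.0363), and the part of these markers in the results below was not tested. CAMTA5 (AT4G16150) was at 149 ± 32.4 (SD, n = 3) in watered and 198 ± 46.0 (n = 3) in droughted Col-0, 172 ± 18.5 (n = 3) and 285 ± 20.6 (n = 3) in camta5, and 346 ± 79.1 (n = 2) in OX5. It was higher in OX5 than in droughted Col-0 (0.76, limma, adjusted p = 0.0198), the direction of the OX5 label. Both OX5 arrays (290 and 402) lay above all droughted Col-0 arrays (146 to 232), as for 30.6% of probe sets. In this comparison 21.7% of probe sets were called higher, and 3363 of 15646 had a difference of this size or larger. CAMTA5 rose with drought in camta5 (0.68, limma, adjusted p = 0.0482) and was not lower in camta5 than in Col-0. Its OX5 range met that of droughted camta5 (265 to 306), so this probe set does not check the camta5 label. Line names below mean the arrays with those labels.

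AKINBETA1 had its lowest signal in droughted Col-0 leaves and its highest in droughted OX5 leaves. In Col-0 with water the 3 arrays read 834, 968 and 1131. In Col-0 after drought they read 514, 367 and 372. Every droughted Col-0 array lay below every watered one. In camta5 the watered arrays read 1520, 1921 and 1614 and the droughted arrays 1720, 1333 and 1351. These ranges overlapped, and all 6 camta5 arrays lay above all 6 Col-0 arrays. The OX5 arrays read 6620 and 5417, above each of the other 12. The share of probe sets with all camta5 above all Col-0 arrays, or with OX5 above all others, was not counted.

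**Figure D1:**
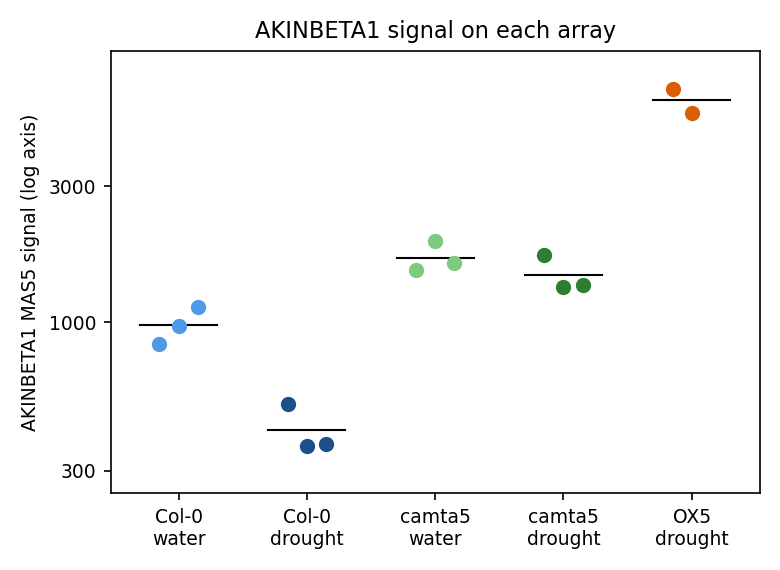
AKINBETA1 signal (MAS5 units, log axis) on each of the 14 arrays by group, with a line at the group mean. The droughted Col-0 arrays sit at 367 to 514, the watered Col-0 arrays at 834 to 1131, the camta5 arrays at 1333 to 1921 and the OX5 arrays at 5417 and 6620.

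As group means, the order from low to high was droughted Col-0 at 418 ± 83.8 (SD, n = 3), watered Col-0 at 978 ± 148 (n = 3), droughted camta5 at 1468 ± 218 (n = 3), watered camta5 at 1685 ± 210 (n = 3) and droughted OX5 at 6019 ± 850 (n = 2). Only droughted and watered camta5 are neighbours in this order whose arrays overlapped. The spread within a group was 12.5% to 20.1% of its mean, and the pooled SD within groups was 0.22 on the log2 scale. The array of camta5 water replicate 1, whose genotype entry reads wild type against its title, had 1520, above the 3 watered Col-0 arrays and within the range of the other camta5 arrays.

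Drought went with a lower AKINBETA1 level in Col-0 and with a small difference in camta5. Values were taken as log2(signal + 16), and each SE comes from a spread that the 5 groups share. The log2 difference between drought and water was -1.20 ± 0.18 (SE) in Col-0, a level 2.30-fold lower. Of the 15646 probe sets tested, 882 were lowered by as much or more, and 19.0% had all droughted Col-0 arrays below all watered ones. In camta5 the log2 difference was -0.20 ± 0.18, about the size of its error. The camta5 change minus the Col-0 change was 1.00 ± 0.25, and 468 probe sets had a difference of that size or larger. In that comparison limma called 0 probe sets (0.00%). An unadjusted p under 0.05, which some probe sets reach by chance, was found for 885 of the 15646. OX5 had no watered arrays here, so no drought change can be given for it.

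The measured AKINBETA1 level was higher in camta5 than in Col-0 with water, and by more after drought. With water, camta5 was 0.78 ± 0.18 above Col-0 on the log2 scale, or 1.72-fold, a difference that 349 probe sets reached or passed. The watered camta5 arrays all lay above the watered Col-0 arrays, as they did for 7.87% of probe sets. In this comparison limma called 0 probe sets (0.00%), as it did for the difference of both drought changes. After drought the camta5 excess was 1.78 ± 0.18, or 3.44-fold, and 67 of the 15646 probe sets had as large an excess. Here too the arrays did not overlap, which held in this direction for 7.77% of probe sets. These comparisons share arrays with the drought changes above and are not independent of them.

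OX5 after drought stood 3.81 ± 0.20 above droughted Col-0 on the log2 scale, or 14.0-fold. So wide a gap was less rare in this comparison, where 216 probe sets had a difference as large and 30.6% had both OX5 arrays above all droughted Col-0 arrays. Against droughted camta5 the log2 difference was 2.03 ± 0.20, or 4.07-fold (768 probe sets as large, and 29.9% without overlap in this direction). Against watered Col-0 it was 2.61 ± 0.20, or 6.09-fold (564 as large, and 35.9% without overlap), where line and drought cannot be told apart. Leaving out any 1 array kept the difference from droughted Col-0 between 3.66 and 3.96. The part that the general distance of the OX5 arrays has in this difference was not tested.

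**Figure D2:**
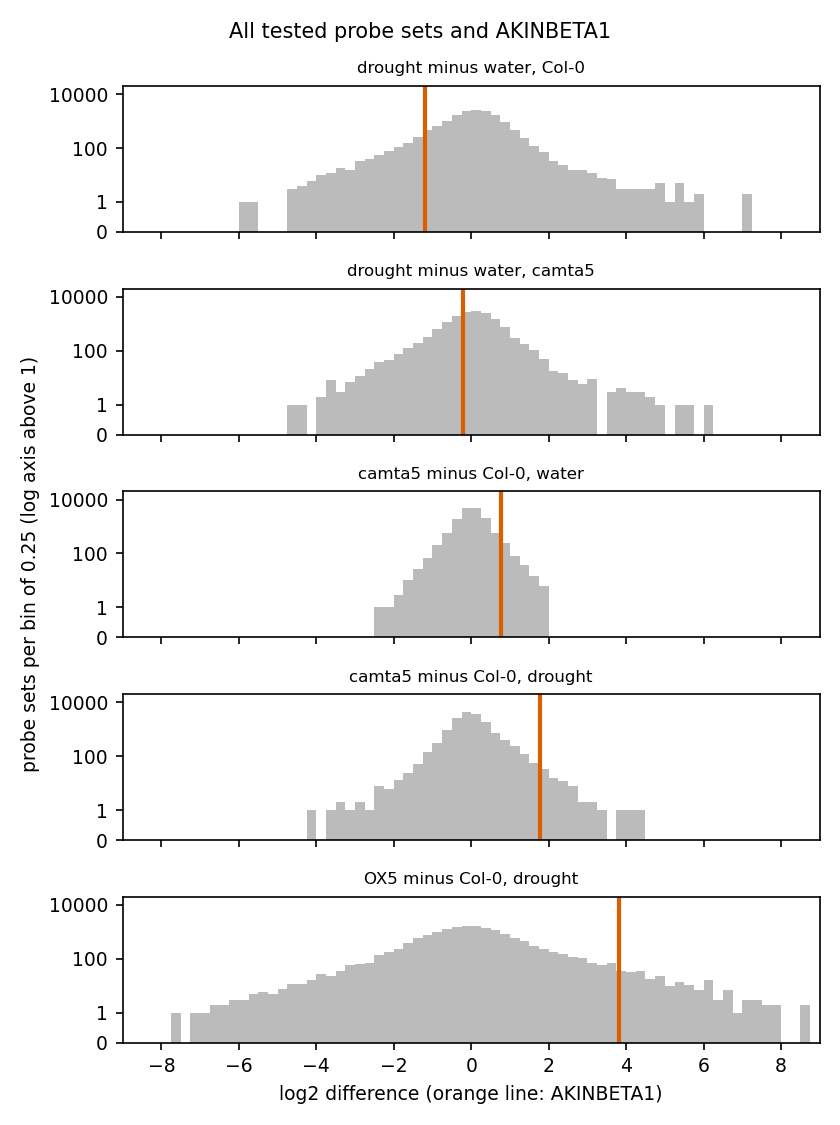
Number of probe sets per bin of log2 difference (15646 tested, log axis) for 5 comparisons, with an orange line at AKINBETA1. The line stands left of centre for drought in Col-0 (-1.20), close to 0 for drought in camta5 (-0.20), and at 0.78, 1.78 and 3.81 in the comparisons between lines, of which OX5 against Col-0 has a wide spread of all probe sets.

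The other measured beta subunits had other patterns than AKINBETA1. The differences of AKINBETA2 (AT4G16360) had the opposite sign in each comparison above, not all of them called. It read 514, 566 and 502 in watered Col-0 and 705, 675 and 762 in droughted Col-0. In camta5 it read 421, 375 and 395 with water and 420, 432 and 481 after drought, and in OX5 375 and 352. The droughted Col-0 arrays were thus the highest of the series for AKINBETA2 and the lowest for AKINBETA1. The OX5 arrays had the lowest group mean for AKINBETA2 and the highest for AKINBETA1. How many probe sets have such extremes was not counted.

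AKINBETA2 rose with drought in Col-0 by 0.43 ± 0.14 on the log2 scale (limma, adjusted p = 0.0352). That call did not last: it ended without any 1 of the 6 Col-0 arrays and in 5 other settings, with adjusted p of 0.0504 to 0.134. Among those settings were quantile normalization (0.31) and a block for the replicate number (adjusted p = 0.0554). In camta5 the drought difference was 0.16 ± 0.14 (adjusted p = 0.490), and the difference between both drought changes was -0.27 ± 0.20 (adjusted p = 0.926). After drought AKINBETA2 was lower in camta5 than in Col-0 by a log2 difference of -0.67 ± 0.14 (adjusted p = 0.0294), a call that ended in 7 settings with adjusted p of 0.0508 to 0.205. Those were a fit of the 6 compared arrays alone, camta5 water replicate 1 counted as Col-0, and the fits without Col-0 drought replicate 2 or 3 or without any 1 of the droughted camta5 arrays. With water the same difference was -0.39 ± 0.14 (adjusted p = 0.617). OX5 was lower than Col-0 in drought by -0.94 ± 0.16 (adjusted p = 0.000212), with both OX5 arrays below all 3 Col-0 arrays (as for 31.9% of probe sets), and this call held under every alternative tried.

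AKINBETA3 (AT2G28060) varied less between group means than the other measured beta subunits. In camta5 its droughted arrays (661 to 688) all lay below its watered ones (766 to 826), as for 16.7% of probe sets. Its OX5 arrays both lay above those of droughted camta5, as for 29.9% of probe sets. Its group means ran from 675 ± 13.4 (SD, n = 3) in droughted camta5 to 798 ± 30.2 (n = 3) in watered camta5, and the OX5 arrays read 831 and 690. Its log2 differences were -0.06 ± 0.15 for drought in Col-0 (adjusted p = 0.785), -0.24 ± 0.15 for drought in camta5 (adjusted p = 0.292) and 0.14 ± 0.16 for OX5 against Col-0 in drought (adjusted p = 0.508), none of them called.

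Within each array, the log2 ratio of AKINBETA1 to AKINBETA2 was set to a mean of 0 in watered Col-0. It then was -1.31, -1.71 and -1.87 in droughted Col-0. In camta5 it was 0.95, 1.45 and 1.12 with water and 1.13, 0.73 and 0.60 after drought. In OX5 it was 3.22 and 3.02. The ratio thus was lowest in droughted Col-0 and highest in OX5, which follows from the levels of both genes given above. It does not compare the amounts of AKINBETA1 and AKINBETA2.

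**Figure D3:**
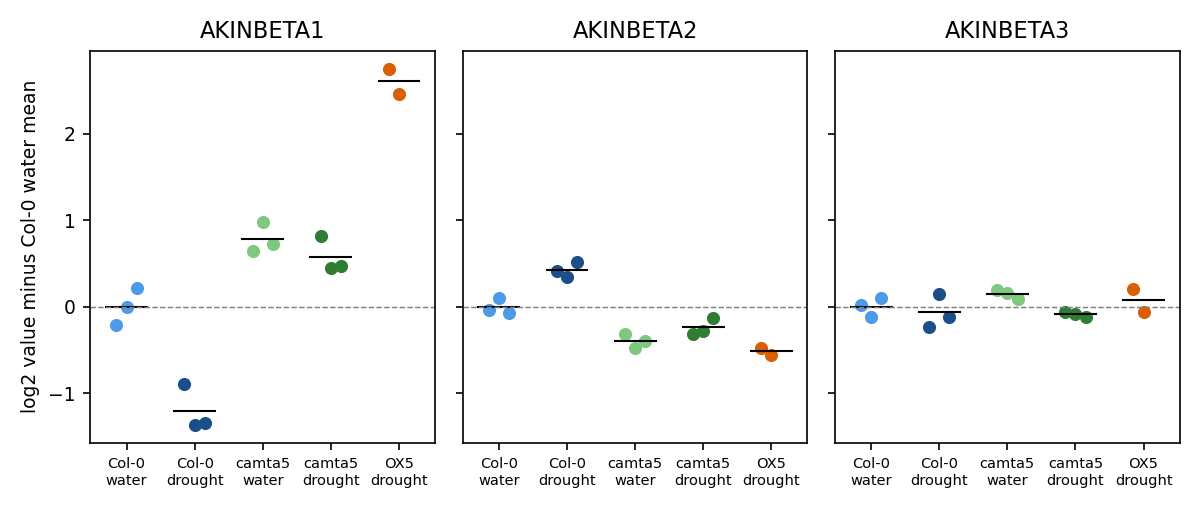
Log2 value of the AKINBETA1, AKINBETA2 and AKINBETA3 probe sets on each array, minus that gene's mean in watered Col-0, with a line at each group mean. The group means of AKINBETA1 run from -1.20 in droughted Col-0 to 2.61 in OX5, those of AKINBETA2 from 0.43 in droughted Col-0 to -0.52 in OX5, and those of AKINBETA3 lie between -0.09 and 0.15.

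Beyond the beta subunits, 10 genes from the fixed lists of SnRK1 targets, starvation-response genes and starch breakdown were measured. With AKINBETA2 and AKINBETA3 they make 12 tested genes of 106 list entries. Several other parts of the lists had no gene with both a name and a probe set of its own in the annotation used. Among them were the catalytic and gamma-type subunits, the upstream kinases, the trehalose pathway, the TOR complex list and the ABA and drought markers. Their levels were not followed here, which does not mean that the array lacks probes for them. In Col-0, drought raised 4 of the 12 and lowered 1, beside 15.6% and 11.7% of all probe sets (27.3% in either direction). In camta5 it raised 2 and lowered 1, beside 8.67% and 7.61% (16.3%). OX5 against Col-0 in drought had 5 higher and 2 lower, beside 21.7% and 25.0% (46.7%). OX5 against droughted camta5 had 8 called (42.6% of all probe sets), and OX5 in drought against watered Col-0 had 11 (53.0%). The medians of the 12 log2 differences were 0.24 for drought in Col-0, 0.24 for drought in camta5 and 0.34 for OX5 against Col-0 in drought, and those of all probe sets were 0.08, 0.04 and -0.04. Between camta5 and Col-0 with water, 0 of the 12 were called (0.00% of all probe sets). There 1000 of the 15646 had an unadjusted p under 0.05 in limma, which some probe sets reach by chance. Between both lines in drought, 1 of the 12 was lower, AKINBETA2 (0.441% of all probe sets lower, 1.02% higher and 1.46% in either direction).

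The list of SnRK1 targets is of proteins, and the arrays measure RNA. On that list, the sucrose-phosphate synthase gene SPS4F (AT4G10120) had its lowest level in OX5. AKINBETA1 had its highest level there, but in Col-0 both genes were lower after drought. The SPS4F arrays read 7175, 5166 and 5531 in watered Col-0, 4515, 1632 and 2972 in droughted Col-0, and 444 and 301 in OX5. In camta5 they read 6720, 6596 and 5482 with water and 3171, 2156 and 2296 after drought. Both OX5 arrays lay far below the other 12. For 31.9% of probe sets they lay below all droughted Col-0 arrays, and the share below all 12 was not counted. Drought lowered SPS4F in Col-0 (-1.07 ± 0.29, adjusted p = 0.0133) and in camta5 (-1.31 ± 0.29, adjusted p = 0.00865), with a difference between both changes of -0.24 ± 0.41 (adjusted p = 0.968). The Col-0 call ended without water replicate 1 (-0.93, adjusted p = 0.0571) or drought replicate 2 (-0.68, adjusted p = 0.0628). OX5 against Col-0 in drought differed by -2.88 ± 0.32 (limma, adjusted p = 5.95e-06).

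EIN3 (AT3G20770), a transcription factor of ethylene signalling, read 1160, 1164 and 1147 in watered and 1748, 1665 and 1555 in droughted Col-0. In camta5 it read 1361, 1319 and 1429 with water and 1917, 2097 and 2286 after drought, and in OX5 3639 and 3874. It rose with drought in Col-0 by 0.51 ± 0.12 (limma, adjusted p = 0.00752) and in camta5 by 0.61 ± 0.12 (adjusted p = 0.00582). OX5 stood 1.17 ± 0.14 above Col-0 in drought (adjusted p = 9.36e-06). F2KP (AT1G07110), which makes and breaks down the regulatory sugar fructose 2,6-bisphosphate, and RAPTOR1 (AT3G08850), a subunit of the growth-promoting TOR complex, were not called in these 3 comparisons. Their log2 differences were -0.42 to -0.23 for F2KP and -0.19 to 0.39 for RAPTOR1.

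MCCA and IVD, 2 genes of the starvation-response list whose enzymes act in leucine breakdown, were high in OX5, and neither was called for drought in Col-0. MCCA (AT1G03090), a subunit of methylcrotonoyl-CoA carboxylase, read 378 to 513 in watered and 506 to 751 in droughted Col-0, 438 to 771 and 577 to 1462 in camta5, and 7798 and 6303 in OX5. IVD (AT3G45300), isovaleryl-CoA dehydrogenase, read 313 to 480 and 223 to 770 in Col-0, 406 to 947 and 347 to 1220 in camta5, and 5997 and 7604 in OX5. For both genes the OX5 arrays lay well above the other 12, while their watered and droughted arrays overlapped in Col-0 and in camta5. Over all probe sets, 30.6% had both OX5 arrays above all droughted Col-0 arrays, and the share above all 12 was not counted. OX5 exceeded Col-0 in drought by 3.48 ± 0.34 for MCCA (limma, adjusted p = 1.47e-06) and by 4.05 ± 0.53 for IVD (adjusted p = 2.42e-05). The drought differences were 0.45 ± 0.30 in Col-0 (adjusted p = 0.291) and 0.88 ± 0.30 in camta5 (adjusted p = 0.0605) for MCCA, and 0.09 ± 0.47 (adjusted p = 0.916) and 0.41 ± 0.47 (adjusted p = 0.600) for IVD. The IVD values hung on single arrays: over the alternatives they ran from -0.38 (without Col-0 drought replicate 2) to 0.47 (without Col-0 drought replicate 3) in Col-0, and from 0.11 (without camta5 drought replicate 3) to 0.99 (without camta5 drought replicate 1) in camta5, none called. In camta5 the MCCA difference was called without camta5 drought replicate 1 (adjusted p = 0.00281), without camta5 water replicate 2 (1.10, adjusted p = 0.0460) and with array weights (1.01, adjusted p = 0.0161).

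ATG8E (AT2G45170), a protein of the membranes that enclose cell contents in autophagy, read 253, 441 and 658 in watered and 456, 337 and 331 in droughted Col-0. It read 636, 732 and 521 in watered and 1034, 750 and 617 in droughted camta5, and 1877 and 2369 in OX5. After drought each camta5 array exceeded each Col-0 array (as for 7.77% of probe sets). Each OX5 array exceeded each camta5 array (as for 29.9%). AKINBETA1 had this order in drought too, and the share of probe sets with both steps was not counted. OX5 exceeded Col-0 by 2.46 ± 0.32 (limma, adjusted p = 2.33e-05) and camta5 by 1.41 ± 0.32 (adjusted p = 0.00262). Droughted camta5 against droughted Col-0 was not called (1.05 ± 0.29, adjusted p = 0.0890). That last difference was called without Col-0 water replicate 1 (adjusted p = 0.0431). This array is outside the comparison, and the log2 difference stayed at 1.05. BZIP53 (AT3G62420), a transcription factor of amino acid breakdown genes, had 2118 to 3390 on the other 12 arrays and 8170 and 5511 in OX5, a difference from Col-0 in drought of 1.33 ± 0.23 (adjusted p = 0.000317). Its drought differences in Col-0 and camta5 were 0.03 ± 0.21 (adjusted p = 0.926) and 0.05 ± 0.21 (adjusted p = 0.900).

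Of the starch breakdown genes, DPE1 rose with drought in Col-0 and camta5, and PWD was called in Col-0. DPE1 (AT5G64860), an enzyme that rearranges short glucans inside the chloroplast, read 143, 232 and 222 in watered and 411, 588 and 588 in droughted Col-0. It read 199, 142 and 138 in watered and 408, 392 and 306 in droughted camta5, and 615 and 819 in OX5. It rose by 1.35 ± 0.23 in Col-0 (limma, adjusted p = 0.000909) and by 1.14 ± 0.23 in camta5 (adjusted p = 0.00565). PWD (AT5G26570), which adds phosphate to starch so that it can be degraded, rose by 0.66 ± 0.17 in Col-0 (adjusted p = 0.0112) and differed by 0.39 ± 0.17 in camta5 (adjusted p = 0.137). The difference between its drought changes was -0.27 ± 0.24 (adjusted p = 0.937), and the Col-0 call ended without water replicate 2 (adjusted p = 0.0582) or drought replicate 3 (0.0501). Neither gene was called between OX5 and Col-0 in drought, with 0.43 ± 0.26 for DPE1 (adjusted p = 0.181) and -0.05 ± 0.19 for PWD (adjusted p = 0.862).

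**Figure D4:**
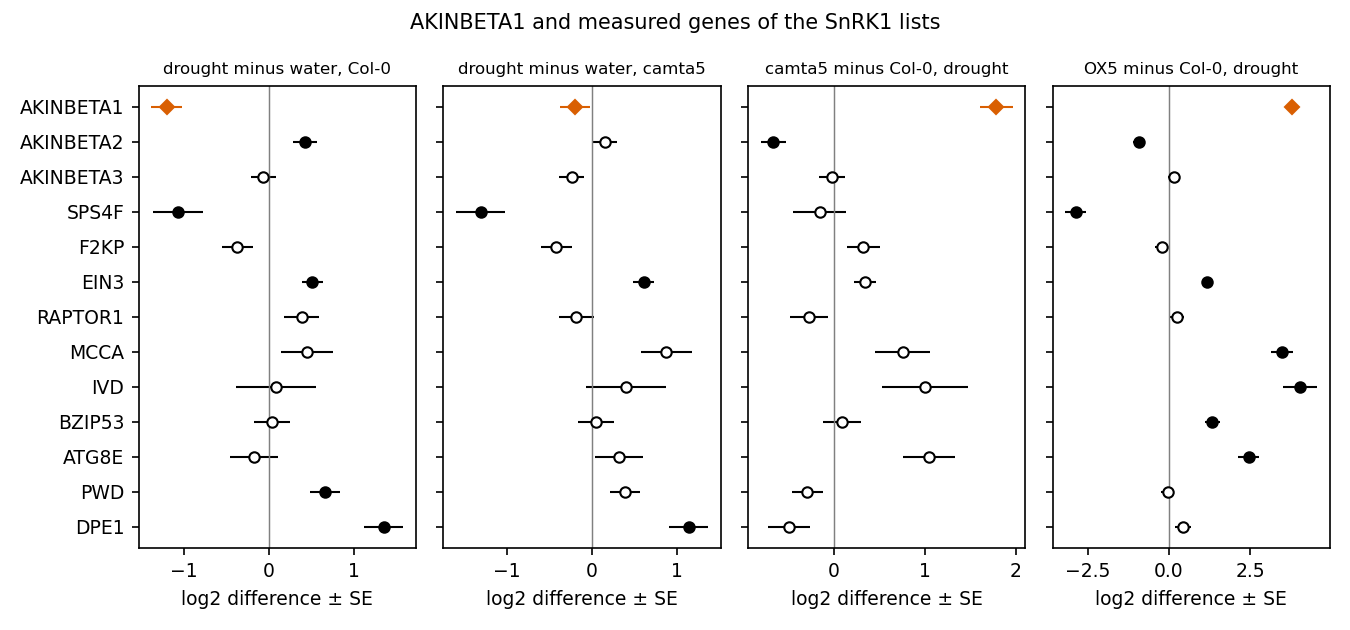
Log2 difference ± SE for AKINBETA1 (orange diamonds, no test) and the 12 tested genes of the SnRK1 lists (filled where called by limma at an adjusted p under 0.05, open otherwise) in 4 comparisons, each with its own axis range. In the comparison of OX5 with Col-0 in drought, AKINBETA1 (3.81), MCCA (3.48), IVD (4.05) and ATG8E (2.46) lie far to the right and SPS4F (-2.88) far to the left.

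The genes whose pattern over the 14 arrays was most like that of AKINBETA1 were sought among 8550 other tested probe sets that name 1 gene. Likeness was the root-mean-square difference between log2 values, each gene centred on its own mean, so that 0 would be an identical pattern. The median over the 8550 was 1.26, and the SD of AKINBETA1 itself over the arrays was 1.16. The nearest was AT1G22890 at 0.33, followed by WES1 (AT4G27260, an enzyme that joins auxin to amino acids, also named GH3.5) at 0.37, AT5G65660 at 0.38, AT5G01210 at 0.39 and AT1G18390 at 0.43. Then came AT4G33420 at 0.44, CML41 (AT3G50770, a calmodulin-like protein) at 0.45, AT1G25275 at 0.49, AT2G25200 at 0.50 and AT3G47380 at 0.50. These 10 were picked for their likeness, so their values are a description.

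WES1 had mean signals of 261 in watered and 101 in droughted Col-0, 374 and 288 in camta5, and 2510 in OX5. For AT5G65660 the means were 756 and 410 in Col-0, 1697 and 1648 in camta5, and 4273 in OX5. CML41 had 234 and 82.8, 358 and 236, and 914. All 10 had a lower mean in droughted than in watered Col-0 and a higher mean in OX5. In droughted Col-0, AT5G01210, AT1G18390 and AT3G47380 had means of 47.6, 24.8 and 9.67, below the 40th percentile of every array, so no size is given for them. For the other 7 the log2 differences were -1.46 to -0.39 for drought in Col-0 and 2.34 to 4.47 for OX5 against droughted Col-0. The large OX5 values weigh on this measure: over the 12 arrays without OX5, 2 of these 10 genes were among the nearest 10, and WES1 was the nearest. By Pearson correlation over the 14 arrays 6 of the 10 stayed among the nearest 10, again with WES1 first. The points of such a correlation fall into groups that share line and treatment.

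**Figure D5:**
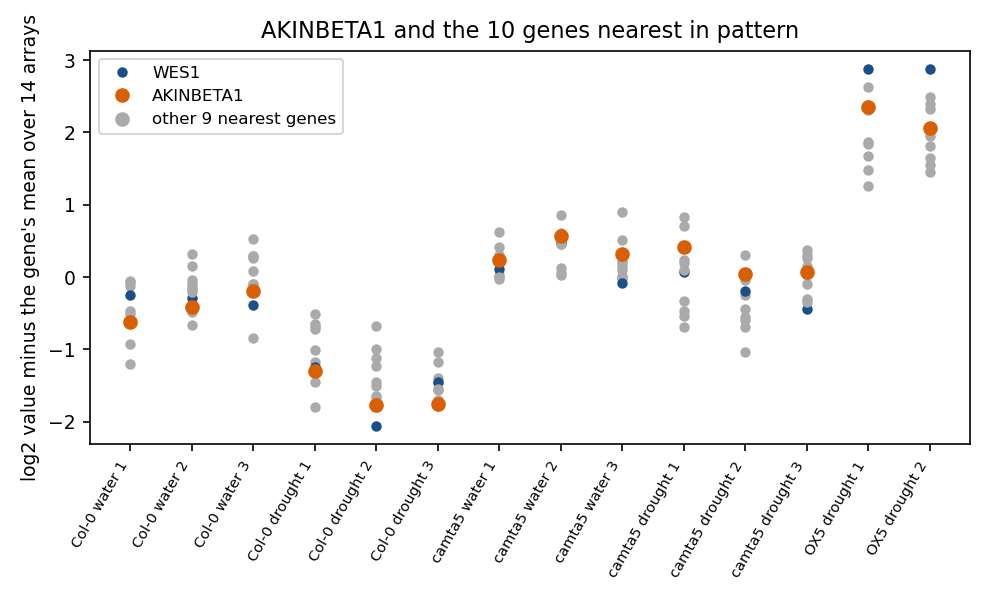
Log2 value of AKINBETA1 (orange), WES1 (blue) and the other 9 nearest genes (grey) on each of the 14 arrays, each minus the gene's mean over all arrays. All have a lower mean in droughted than in watered Col-0 and their highest mean in OX5.

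The full order seen for AKINBETA1, with droughted Col-0 below watered Col-0, watered Col-0 below all camta5 arrays, and all camta5 arrays below OX5, each without overlap, was shared by few. It held for 10 of the 15646 probe sets, AKINBETA1 included. Of these, 5 named a single gene, and besides AKINBETA1 they were AT5G65660, AT5G48970, AT3G61260 and AT2G03270. This order was read from the AKINBETA1 values, and the count is a description.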

How the data were processed

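Each deposited intensity is a MAS5 signal on a linear scale, which the authors made with Affymetrix software (Expression Console), according to the submitters' processing notes. Software version and genome build are not given in the sources used here. No coordinates are printed for that reason. Every array had a mean of about 500 once 2% of values were trimmed at either end. Precision is limited by, among other things, the number of arrays.

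Titles gave each sample its group and replicate number. Samples were fitted as unpaired. Correlations of deviations from the group mean were -0.16 to 0.24 over 26 same-number pairs and -0.31 to 0.17 over 52 different-number pairs. The highest were 0.24 and 0.23, between droughted Col-0 and droughted camta5 arrays of replicate 2 and of replicate 1. For replicate 3 that value was -0.16. Some shared structure among the droughted arrays is thus possible. Probe sets were named through the platform annotation and RefSeq symbols of assembly TAIR10.1. Of 22810 probe sets, 13513 named 1 gene, 503 named several and 8794 named none, and 64 controls were left out. A list gene without a probe set of its own here may still be among those that name several genes or none. A further 19 list entries, whose name the RefSeq table lacks, were not used. AKINBETA1, the lists and the tests were chosen with earlier results of these data known.

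A probe set was tested if at least 2 arrays exceeded their own 40th percentile, which left 15646, on the scale log2(value + 16). A fold change on this scale understates the change of low genes. limma 3.58.1 in R 4.3.3 fitted a mean for each of the 5 groups over 14 arrays, with trended moderation and two-sided tests. Calls had a Benjamini-Hochberg adjusted p under 0.05 within each of 8 comparisons. The fit was also run on simulated data with independent noise and genes changed in droughted Col-0 only. That run does not check the comparisons with OX5. By rule the text names AKINBETA1, the measured subunits, up to 3 called genes per list with the largest change, and the 10 genes nearest in pattern. F2KP, RAPTOR1 and BZIP53 are named beyond that rule, after their values were seen. Alternatives varied the offset, filter, scaling, moderation, array weights, arrays included, replicate block and the label of camta5 water replicate 1.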

Additional observations from a re-analysis of the deposited data

How the results depend on the processing

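All 213 recomputed AKINBETA1 differences kept their sign and moved by at most 0.17 on the log2 scale. That is less than the SD within groups of 0.22. Some settings cannot change such a difference, so the count of 213 says little by itself. Among them are another filter or moderation, and leaving out an array of a group outside the comparison. Leaving out 1 array gave -1.36 to -1.09 for drought in Col-0, -0.32 to -0.10 for drought in camta5 and 0.88 to 1.16 for the difference of both. It gave 0.67 to 0.89 and 1.66 to 1.94 for camta5 against Col-0 with water and in drought, and 3.66 to 3.96, 1.88 to 2.17 and 2.46 to 2.75 for OX5 against droughted Col-0, droughted camta5 and watered Col-0. With 1 OX5 array left, it is assumed to vary like the other groups.

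Counts of called genes moved more, and the cause was not tested. For camta5 against Col-0 in drought, the 228 called probe sets became 144 without the trend, 427 with array weights and 9 with only the compared arrays, and 84 to 552 when 1 array was left out (without Col-0 drought replicate 3 and 1). Of the 12 pathway genes, 1 was called there, 0 with only the compared arrays or with camta5 water replicate 1 counted as Col-0, and 0 to 2 without 1 array. With water, the 0 called became 6 with array weights, 44 with only the compared arrays and 0 to 4 without 1 array. The 2547 called for drought in camta5 became 1445 with camta5 water replicate 1 counted as Col-0 and 1121 to 2920 without 1 array, lowest without camta5 drought replicate 2. When 1 array was left out, drought in Col-0 had 2601 to 4530 called, lowest without its drought replicate 2, and 3 to 5 of the pathway genes (up to 5305 probe sets over all alternatives). The difference of both drought changes then had 0 to 37 called, highest without Col-0 drought replicate 1, and OX5 in drought against watered Col-0 had 7 to 11 pathway genes called, 7 without OX5 replicate 2. Of the 8 genes called between OX5 and droughted camta5, F2KP lost its call in 8 settings (adjusted p = 0.0577 to 0.124) and DPE1 without OX5 replicate 2 (0.0912).

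With the replicate number as a block, AKINBETA2 lost its call for drought in Col-0 (adjusted p = 0.0554) and RAPTOR1 that for OX5 against watered Col-0 (0.0552). Centring arrays on the median moved the median difference of all probe sets from -0.04 to -0.17 for OX5 against Col-0 in drought, with 2838 called higher and 4516 lower against 3395 and 3913, and AKINBETA1 then differed by 3.68. Against watered Col-0 the split moved from 4234 and 4052 to 3424 and 4725, and against droughted camta5 from 3153 and 3513 to 2485 and 4194.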
